A study of Mus musculus with 4 samples.

Results

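Chil3-positive C1q-gated cells of a mouse glioma are macrophage-like cells that carried RNA for the complement component C1q, which tissue macrophages make, together with RNA for Chil3 (Ym1), a secreted chitinase-like protein of monocytes and some activated macrophages. They were chosen on raw UMIs (unique molecular identifiers, each standing for 1 captured RNA molecule). A barcode was kept with 500 or more genes detected and under 10% mitochondrial UMIs. It also had to hold 30 or more UMIs of C1qa, C1qb and C1qc together, fewer than 2 of the microglial genes P2ry12, Tmem119, Crybb1 and Sall1, none of the lymphocyte genes Cd3e and Cd79a, fewer than 4 of the hypoxia genes Hilpda, Ndrg1 and Egln3, and 3 or more of Chil3. The rule found 319 cells among 13960 barcodes, 153 of 6689 in the WT library and 166 of 7271 in the CaMKK2 KO library. Genotype played no part in the rule.

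The study asked how loss of CaMKK2, a calcium/calmodulin-dependent kinase kinase, changes the immune cells of intracranial CT2a glioma, a syngeneic mouse line. CT2a cells were implanted in young adult C57Bl/6 mice that were WT or lacked CaMKK2 from the germline in every tissue (CaMKK2 KO), and the tumor-bearing hemispheres were taken on day 14. Live CD45+ cells of 4 mice per genotype were sorted, tagged with 1 hashtag antibody per mouse and pooled into 1 library of droplet 3′ RNA sequencing per genotype. Genotype and library therefore cannot be told apart, and CaMKK2 was missing from the macrophages and from every other host cell alike.

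In inflamed or tumor-bearing brain, classical monocytes leave the blood through the chemokine receptor Ccr2 and become macrophages in the tissue. Along that course they are known to lose Ly6c2 and Plac8 and to gain complement, lysosomal and lipid-handling genes. Thrombospondin 1 (Thbs1) and fibronectin (Fn1) are matrix proteins that monocytes and newly recruited macrophages secrete. All cells here were taken at 1 time point, so the description below concerns levels and not a course in time.

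Hashtags gave 284 of the 319 cells to 1 mouse: 19, 36, 32 and 49 in WT mice 1 to 4, and 40, 40, 39 and 29 in CaMKK2 KO mice 1 to 4. Values per mouse rest on these cells, whose UMIs were summed within each mouse and expressed per 1000000 UMIs of the class (CPM). The sums held between 250081 UMIs in WT mouse 1 and 670155 in WT mouse 4. A median of 13347 UMIs and 3297 genes was detected per cell in WT and 13366 UMIs and 3306 genes in CaMKK2 KO. No barcode string of these cells occurred in both libraries, although 42 strings of the whole series did.

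The cells were set beside 2 classes from the same mice. Chil3-negative C1q-gated cells passed the same gates with no Chil3 UMI and numbered 798, of which 748 had 1 hashtag. Classical monocytes numbered 1078, of which 1044 had 1 hashtag. They passed the same microglial, lymphocyte and hypoxia limits and held 5 or more Ly6c2 UMIs, fewer than 10 C1q UMIs and 1 or more of Csf1r. They also had none of the NK cell genes Klrb1c and Ncr1, the dendritic cell genes Flt3 and Siglech or the neutrophil genes Ly6g and Cxcr2, and fewer than 2 of the non-classical monocyte genes Ace and Adgre4. Chil3 was unused. Another 188 C1q-gated cells held 1 or 2 Chil3 UMIs and belonged to neither C1q-gated class. WT mouse 1 held only 7 monocytes, and these entered no gene test. Its C1q-gated cells stayed in the fit that the 3 classes shared. Levels and means of WT Chil3-positive cells rest on 4 mice, also where they stand beside those of the monocytes of WT mice 2 to 4.

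For the label of a monocyte-to-macrophage transition, markers outside the gates were read in the cells. Fn1 was detected in 84.6% of the WT and 68.9% of the CaMKK2 KO cells, and Ccr2 in 82.4% and 87.2%. Thbs1 was detected in 78.7% of the WT cells but in only 33.1% of the CaMKK2 KO cells. T cells, which should lack Fn1 and Thbs1 and served as the background, gave 12.1% and 4.72% for Fn1 and 6.40% and 2.71% for Thbs1, at medians of 9824 and 10114 UMIs. With every cell thinned to 8000 UMIs the shares were 79.2% and 59.4% for Fn1, and 73.1% and 26.6% for Thbs1, against 6.65% and 4.02%, and 4.09% and 1.28%, in T cells. The thinning left out 6 WT and 5 CaMKK2 KO cells, and 203 and 301 T cells. Ccr2, which T cells also express, cannot be read against them. The markers were thus present in both genotypes, with Thbs1 in a minority of the CaMKK2 KO cells. They were not particular to these cells. In WT and CaMKK2 KO monocytes, Fn1 was detected in 91.6% and 64.1%, Thbs1 in 78.0% and 29.4%, and Ccr2 in 93.0% and 92.8%. In Chil3-negative cells the shares were 47.9% and 36.1%, 40.0% and 19.8%, and 46.8% and 67.9%. Detection alone therefore does not separate a transition from either class.

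Droplets with 2 cells could also carry both Chil3 and C1q. Hashtags of 2 mice were found on 35 of the 319 barcodes (10.97%; 17 in WT and 18 in CaMKK2 KO), against 5.89% of the Chil3-negative cells and 3.15% of the monocytes, and these barcodes were left out of every value per mouse. At that rate about 4.25% of the remaining WT cells and 4.18% of the CaMKK2 KO cells would be pairs from 1 mouse. The median UMI count of the cells (13347 over both genotypes) lay between the 11296 of the monocytes and the 14461 of the Chil3-negative cells. Among T cells, 38 of 1557 barcodes reached 3 Chil3 UMIs, and 27 of these 38 carried 2 hashtags. Leaving out the barcodes with the highest Scrublet doublet scores gave 1070 genes that differed from Chil3-negative cells, where all cells gave 1092, and 1705 genes that differed from monocytes, where all cells gave 1722. The part of undetected doublets in the levels below was not tested.

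Marker lists of other cells were low in the Chil3-positive cells. Summed over each list, T cell genes gave 9.41 CPM in WT and 14.5 in CaMKK2 KO, with Cd3e at 0 by the gate. B cell genes gave 18.9 and 15.96 CPM with Cd79b the most abundant, and Ms4a1 and Pax5 had no UMI. The neutrophil genes gave 107 and 123 CPM, most of it the cytokine receptor Csf3r, with Ly6g, Retnlg and Mmp9 at 0. NK cell genes gave 15.5 and 42.4 CPM with Gzma on top, against 54.7 and 50.8 CPM in Chil3-negative cells. WT mouse 3 carried that WT mean, with 161 CPM against 30.9, 12.1 and 14.7 in WT mice 1, 2 and 4. The neutrophil list gave 48.8 and 70.5 CPM in Chil3-negative cells and 90.3 and 120 in monocytes, whose gate had set Ly6g and Cxcr2 to 0. Dendritic cell genes gave 16.1 and 6.85 CPM, genes of glioma, glia or neurons 36.3 and 54.3 CPM (most of it Mbp), basophil and mast cell genes 0.986 and 0.443 CPM, and erythroid genes had no UMI. Non-classical monocyte genes, led by Fcgr4, which macrophages also express, gave 629 and 911 CPM. Microglial genes gave 222 and 116 CPM, below the 406 and 156 of the Chil3-negative cells, although 5 of its 12 genes were used by the gates.

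WT mouse 1 stood apart among the WT mice. Its 19 cells had the lowest level of the monocyte gene Plac8 (276 CPM, against 1583 to 2427 in the other WT mice) and the highest levels of Fn1 and Thbs1. Their class II histocompatibility genes were also far below those of the other 3 WT mice. Genotype differences in these genes are given with and without it.

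The amount of Chil3 in a cell ranged widely. WT cells held 3 to 274 Chil3 UMIs with a median of 19, and CaMKK2 KO cells 3 to 220 with a median of 11. Per mouse, the level of Chil3 was 3983, 2259, 1361 and 2514 CPM in WT and 1584, 1048, 1829 and 898 in CaMKK2 KO. The genotypes overlapped, and because Chil3 chose the cells no test was made. In the monocytes, which were not chosen on Chil3, the level was 7671, 6792 and 6219 CPM in WT mice 2 to 4 and 3092, 2642, 4601 and 1305 CPM in the CaMKK2 KO mice. Chil3 lies on chromosome 3 (mm10, 106147554 to 106167564) beside its near-identical relative Chil4, which had 1 UMI in the WT and 0 in the CaMKK2 KO cells, so reads of the pair may not be fully separated.

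**Figure D1:**
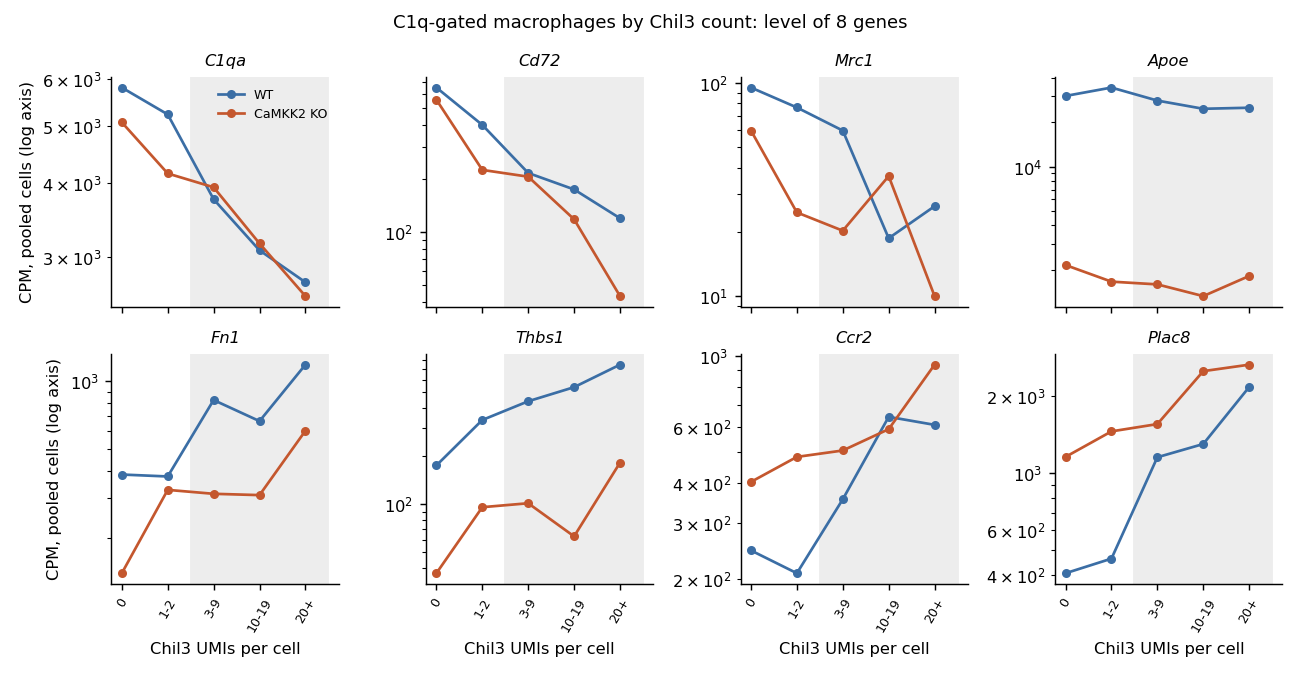
Level of 8 genes (y axes, CPM over pooled one-mouse cells, log axes) in C1q-gated cells grouped by their Chil3 UMIs (x axes, from 0 to 20 or more), for WT and CaMKK2 KO, with the bins of the Chil3-positive cells shaded. Plac8, Fn1, Thbs1 and Ccr2 were higher, and C1qa, Cd72 and Mrc1 lower, in the bin of 20 or more than in the bin of 0 in both genotypes, and the cells with 1 or 2 UMIs mostly lay in between.

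The plot of marker levels by Chil3 bin shows how the cells varied along Chil3. It is a description of pooled cells, since binning and gating used the same counts. From cells with no Chil3 to cells with 20 or more UMIs, Plac8 went from 406 to 2159 CPM in WT and from 1154 to 2637 in CaMKK2 KO. Fn1 went from 384 to 1188 CPM in WT and from 139 to 602 in CaMKK2 KO. The mannose receptor Mrc1, a gene of resident and alternatively activated macrophages, went the other way, from 95.01 to 26.4 CPM in WT and from 59.7 to 10.0 in CaMKK2 KO. The inhibitory receptor Cd72 went from 653 to 119 CPM in WT and from 557 to 43.4 in CaMKK2 KO. C1qa itself went from 5794 to 2725 CPM and from 5064 to 2582 CPM, while the median number of C1q UMIs per cell went from 197 to 86 and from 182 to 79.

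Apoe, the lipid carrier apolipoprotein E, moved little along Chil3 and differed between the genotypes in every bin. It stood at 30024 CPM with no Chil3 and 24996 CPM in the highest bin of WT, and at 2159 and 1822 CPM in CaMKK2 KO.

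Cells just inside and just outside the rule were compared with no test. The 8 WT cells with exactly 3 Chil3 UMIs had 1048 CPM of Plac8 and 2288 CPM of C1qa, and the 21 WT cells with exactly 2 had 556 and 3883. In CaMKK2 KO, 17 cells with 3 UMIs had 1610 CPM of Plac8 and 4492 of C1qa, and 26 cells with 2 had 1685 and 3937. Plac8 was thus higher just inside the edge in WT and about equal on both sides of it in CaMKK2 KO.

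The share of C1q-gated macrophages that were Chil3-positive differed little between the genotypes. It was 20.0, 27.5, 23.9 and 23.6% in WT mice 1 to 4, and 20.3, 26.3, 25.3 and 22.1% in CaMKK2 KO mice 1 to 4. The ranges lay almost on top of each other. The means were 23.7% ± 3.06 (SD, n = 4) and 23.5% ± 2.79 (SD, n = 4), a difference of -0.209 percentage points (two-sided exact permutation test, p = 0.971). The design of 4 against 4 mice allows no p below 0.0286. Of all hashtag singlets past the quality gate, the cells made up 2.39% ± 0.618 (SD, n = 4) in WT and 2.43% ± 0.279 (SD, n = 4) in CaMKK2 KO (two-sided exact permutation test, p = 0.914).

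**Figure D2:**
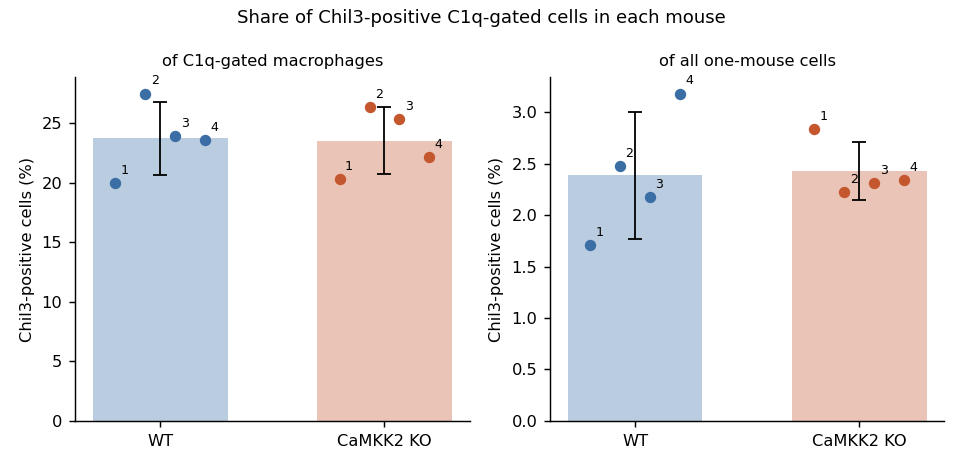
Share of Chil3-positive cells per mouse (y axes, percent) among C1q-gated macrophages and among all one-mouse cells, for 4 WT and 4 CaMKK2 KO mice, with numbered points for mice and bars and error bars for means ± SD. The genotypes overlap in both panels, with means of 23.7% and 23.5% and of 2.39% and 2.43%.

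A stricter reading of Chil3 widened the difference without passing the test. With 10 or more Chil3 UMIs, 16.2% of the WT and 12.7% of the CaMKK2 KO macrophages counted as positive (exact permutation p = 0.114). Counted after thinning each cell to 8000 UMIs, the shares were 23.2% and 19.8% (exact permutation p = 0.114). Monocytes, beside which the share stands, made up 3.87% of the WT singlets and 13.9% of the CaMKK2 KO singlets (exact permutation p = 0.0571). Per mouse they were 0.629, 3.38, 8.16 and 3.31% in WT and 9.52, 16.4, 4.21 and 25.7% in CaMKK2 KO, so the genotypes overlapped.

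Against Chil3-negative macrophages of the same mice, the Chil3-positive cells carried more RNA of monocyte, interferon and matrix genes and less of cell-cycle and mature macrophage genes. Of 9196 genes tested with the mouse as a block (edgeR quasi-likelihood test, Benjamini-Hochberg adjusted p under 0.05, genes of the gates adjusted with the rest but not counted), 1092 differed (11.9%), 531 higher (5.77%) and 561 lower (6.10%) in the Chil3-positive cells. The cells were divided on Chil3 counts of the same libraries, so genes that track Chil3 from cell to cell were bound to differ. The p-values speak to whether the difference recurs over mice. WT mice alone gave 569 differing genes and CaMKK2 KO mice alone 387.

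The share of mitochondrial UMIs, a sign of cell quality, moved with the classes, at medians of 1.83% in the Chil3-positive cells, 2.39% in the Chil3-negative cells and 2.01% in the monocytes. The mitochondrial genes mt-Co1, mt-Co2, mt-Co3, mt-Nd4 and mt-Atp6, chosen after their values were seen, were lower than in Chil3-negative cells in 8 of 8 mice each, from a log2 fold change of -0.37 for mt-Co1 to -0.63 for mt-Co3 (edgeR adjusted p = 0.000667 or less). Against monocytes mt-Co3 was lower in 7 of 7 mice (log2 fold change -0.39 ± 0.09 (SE), edgeR adjusted p = 0.00265), and the other 4 genes were called lower as well but lost the call when single mice were left out. Their part in the gene groups below was not tested.

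Thbs1 was among the 10 largest rises found in every mouse. Its level in the Chil3-positive cells was 1419.5, 518, 438 and 507 CPM in WT and 145, 70.8, 139.9 and 103 in CaMKK2 KO mice. In Chil3-negative cells it was 300.1, 199, 105 and 150.5 CPM and 30.9, 47.1, 34.8 and 39.9 CPM. Every mouse had more in its Chil3-positive cells (log2 fold change 1.74 ± 0.22 (SE), edgeR adjusted p = 2.47e-06, higher in 8 of 8 mice). Fn1 gave 1827, 1078, 1034 and 536 CPM in WT and 669, 292, 400.1 and 114 in CaMKK2 KO Chil3-positive cells. The Chil3-negative cells had 795, 549, 239 and 203 CPM and 227, 117, 84.05 and 63.4 CPM. The difference held in each of the 8 mice (log2 fold change 1.45 ± 0.15 (SE), edgeR adjusted p = 2.51e-07).

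Ccr2 and Plac8, genes of circulating monocytes, moved in the same direction. Ccr2 measured 419.9, 656, 495 and 527 CPM in WT and 866, 520.4, 572 and 622 in CaMKK2 KO Chil3-positive cells. The Chil3-negative cells had 238, 233, 225 and 268 CPM and 422, 350.4, 280.4 and 596 CPM, so the classes overlapped only in the CaMKK2 KO mice (log2 fold change 0.88 ± 0.11 (SE), edgeR adjusted p = 2.68e-06, higher in 8 of 8 mice). Plac8 stood at 276, 2427, 1789 and 1583 CPM in WT and 1623, 2299.5, 1888 and 2871 in CaMKK2 KO Chil3-positive cells. The Chil3-negative cells had 79.03, 556, 526 and 381 and 917, 1247, 522 and 2387 CPM. Within each mouse the Chil3-positive cells were higher (log2 fold change 1.39 ± 0.16 (SE), edgeR adjusted p = 6.89e-07), although WT mouse 1 was low in both classes.

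Of the 14 classical monocyte genes tested, 11 were higher in the Chil3-positive cells and none was lower (median log2 fold change 1.07, against -0.04 over all genes tested). Besides those above they included Hp, the hemoglobin scavenger haptoglobin (1.72), F13a1, the coagulation factor XIII A chain (1.11), and the calcium-binding S100a4 (1.09). All of these had an edgeR adjusted p of 1.26e-05 or less, the value of F13a1. S100a8, a subunit of calprotectin that neutrophils and monocytes share, had the largest rise among genes higher in every mouse (log2 fold change 2.58 ± 0.39 (SE), edgeR adjusted p = 4.08e-05).

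The other genes with the largest rises in every mouse had varied roles. They were Igf2r, the mannose-6-phosphate receptor (2.09), Flt1, a receptor for vascular endothelial growth factor (2.04), Papss2, which makes the sulfate donor for matrix glycans (1.66), the homeodomain protein Hopx (1.58), the interferon-induced Ifit1bl1 (1.57) and F10, coagulation factor X (1.56). Papss2 lost its call without WT mouse 4 (log2 fold change 1.43, edgeR adjusted p = 0.0607), with cells thinned to 8000 UMIs (1.27, 0.121) and in CaMKK2 KO mice alone (1.479, 0.103). Ifit1bl1 did not pass in CaMKK2 KO mice alone (1.08, edgeR adjusted p = 0.0568). Igf2r was scarce, at means of 7.22 CPM in WT and 17.9 in CaMKK2 KO.

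Interferon-response genes were higher in the Chil3-positive cells in 15 of 16 cases (median log2 fold change 0.76). Isg15, a ubiquitin-like protein induced by interferon, rose in 8 of 8 mice (log2 fold change 1.16 ± 0.13 (SE), edgeR adjusted p = 9.35e-07). The antiviral genes Ifit3 (1.04) and Rsad2 (1.32) rose with it, Rsad2 in 7 of 8 mice. In CaMKK2 KO mice alone Rsad2 did not pass the test (0.80, edgeR adjusted p = 0.0732). Immediate early genes were higher in 6 of 9 cases and lower in 1 (median 0.51).

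Matrix genes were higher in 8 of 18 cases and lower in none (median log2 fold change 0.30). Ecm1, extracellular matrix protein 1, rose in every mouse (log2 fold change 1.17 ± 0.11 (SE), edgeR adjusted p = 9.41e-08). Tgfbi, an adhesion protein induced by TGF-beta, rose by a smaller amount in every mouse (log2 fold change 0.40 ± 0.06 (SE), edgeR adjusted p = 7.44e-05). Spp1, the secreted phosphoprotein osteopontin, rose in 7 of 8 mice (log2 fold change 1.71 ± 0.34 (SE), edgeR adjusted p = 0.000859). The phagocyte gene Gpnmb was also higher (log2 fold change 1.88 ± 0.51 (SE), edgeR adjusted p = 0.0132), in 6 of 8 mice, but not in several alternatives. With a Chil3 minimum of 10 UMIs its log2 fold change was 0.75 (edgeR adjusted p = 0.454), in WT mice alone 1.45 (0.205), without CaMKK2 KO mouse 3 1.61 (0.0578) and by DESeq2 2.06 (0.0639).

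Mature macrophage genes were lower in 9 of 14 cases, with Gpnmb the one that was higher (median log2 fold change -0.46). Cd81, a tetraspanin, fell most clearly. It measured 47.98, 72.9, 80.9 and 83.6 CPM in WT and 61.8, 40.7, 33.5 and 30.7 in CaMKK2 KO Chil3-positive cells. The Chil3-negative cells had 399, 448, 509.8 and 479 CPM and 315, 101, 430.1 and 81.5 CPM. In either genotype the 2 classes did not overlap (log2 fold change -2.52 ± 0.17 (SE), edgeR adjusted p = 1.52e-10, lower in 8 of 8 mice). Cd72 (-1.99), Mrc1 (-1.38) and the fractalkine receptor Cx3cr1 (-0.64) were lower in all 8 mice too, each with an edgeR adjusted p of 0.000309 or less. Apoe was slightly lower (log2 fold change -0.46 ± 0.13 (SE), edgeR adjusted p = 0.0187), a call that was lost without CaMKK2 KO mouse 1 (-0.39, edgeR adjusted p = 0.0710) or CaMKK2 KO mouse 4 (-0.32, edgeR adjusted p = 0.0628). It was also lost by DESeq2 (-0.44, adjusted p = 0.0580), in WT mice alone (-0.21, edgeR adjusted p = 0.211) and without the mouse block (-0.19, edgeR adjusted p = 0.956).

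Cell-cycle genes were lower in 9 of 10 cases (median log2 fold change -2.03). Mki67, a nuclear protein of dividing cells, fell in 8 of 8 mice (log2 fold change -2.19 ± 0.36 (SE), edgeR adjusted p = 0.000103), as did the DNA topoisomerase Top2a (log2 fold change -3.26 ± 0.39 (SE), edgeR adjusted p = 1.6e-06). The mitotic genes Ccnb2 (-5.53), Ube2c (-5.27), Cenpe (-4.97) and Spc24 (-4.14) were among the 10 largest falls. Their sizes rest on few UMIs in the Chil3-positive cells. Leaving out 1 mouse moved the log2 fold change of Ccnb2 to -7.26 (without CaMKK2 KO mouse 1), of Ube2c to -6.12 (CaMKK2 KO mouse 3), of Cenpe to -6.23 and of Spc24 to -4.90 (both CaMKK2 KO mouse 4), with Spc24 at -4.75 without WT mouse 4. The list summed to 154 CPM in WT and 129 in CaMKK2 KO Chil3-positive cells, against 462 and 349 CPM in Chil3-negative cells and 115 and 113 CPM in monocytes. Against monocytes none of the 10 genes passed the test, with 9 of 10 above 0 (median log2 fold change 0.54, against 0.09 over all genes).

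The rest of the 10 largest falls were genes with few UMIs in the Chil3-positive cells, namely Asb2, Ighg2b, Prune2, Cp, Crim1 and Ccl17. Ccl17, a chemokine of dendritic cells and alternatively activated macrophages, had no UMI in the Chil3-positive cells and 39 and 44 UMIs in WT and CaMKK2 KO Chil3-negative cells. Crim1, a membrane protein that binds growth factors, had none against 40 and 51. A count of 0 over the sums of the class allows up to 1.57 CPM in WT and 1.478 in CaMKK2 KO, counting error only.

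The remaining lists moved in part. Of 10 genes of class II antigen presentation, H2-DMb2 was lower and none was higher (median log2 fold change -0.18). Lipid-handling genes were higher in 5 of 14 cases and lower in 2 (median 0.22): the fatty acid binding protein Fabp5, and Apoc1, Npc2 and Msr1, rose, while Apoe and Pparg fell. The fifth higher call, the related Fabp4 (2.96, not called by DESeq2), came from the WT mice. Fabp4 was at 15.99, 6.24, 3.95 and 83.6 CPM in their Chil3-positive and 6.17, 0, 0 and 1.53 CPM in their Chil3-negative cells. In CaMKK2 KO it had no UMI in the Chil3-positive cells and 3.58, 0, 0.657 and 0 CPM in the Chil3-negative ones. Chemotaxis and adhesion receptors were higher in 6 and lower in 2 of 12 cases (median 0.36). Inflammatory mediators were higher in 7 and lower in 2 of 20 (median 0.35). The cytokine gene Il1b (log2 fold change 0.77 ± 0.14 (SE), edgeR adjusted p = 0.000225) was among those higher, in 6 of 8 mice. In CaMKK2 KO mice alone Il1b did not pass the test (0.46, edgeR adjusted p = 0.175). Lysosomal genes were higher in 2 and lower in 1 of 11 (median 0.08). Of the other chitinase-like genes only Chil1 was abundant enough to test, and it did not pass (log2 fold change 1.52 ± 0.54 (SE), edgeR adjusted p = 0.0731). In the list of alternative activation, to which Chil3 itself is often assigned, Mrc1, Clec10a and Mgl2 were lower, of 9 tested (median 0.11), Mgl2 not in CaMKK2 KO mice alone (-2.30, edgeR adjusted p = 0.0922).

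**Figure D3:**
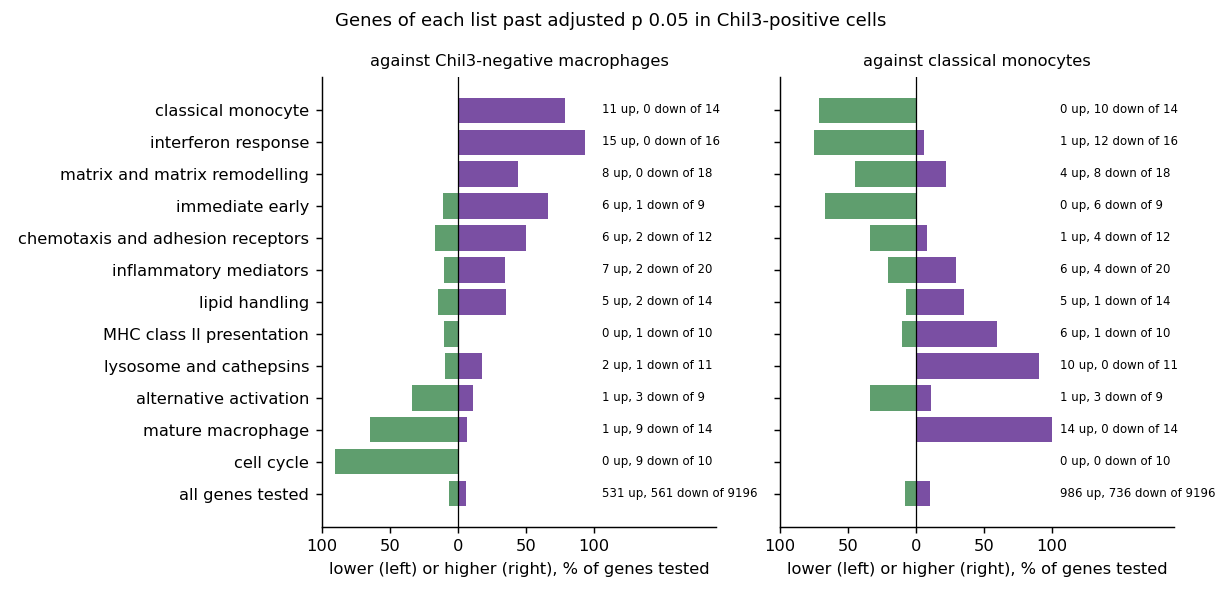
Share of the tested genes of each list that were lower (left) or higher (right) in Chil3-positive cells past an edgeR adjusted p of 0.05 (x axes, percent), against Chil3-negative C1q-gated cells and against classical monocytes, with the counts printed beside the bars. Monocyte genes were higher than in Chil3-negative cells (11 of 14) and lower than in monocytes (10 of 14), and mature macrophage genes showed the opposite (9 of 14 lower and 14 of 14 higher).

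Set against classical monocytes in 7 mice, the same cells had more RNA of macrophage and lysosomal genes and less of monocyte and interferon genes. Of the 9196 genes, 1722 differed (18.7%), 986 higher (10.7%) and 736 lower (8.003%) by the same edgeR test. The balance of directions depended on the scaling: 57.3% of the calls were higher with the UMI total as library size, 42.6% with TMM factors and 41.0% by DESeq2. The gates divided these classes on C1q and Ly6c2, so genes that track either were bound to differ, and the genes of the gates themselves were left out. WT mice alone gave 852 differing genes and CaMKK2 KO mice alone 722.

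All 14 mature macrophage genes tested were higher in the Chil3-positive cells (median log2 fold change 1.29, against 0.09 over all genes). Cd81 measured 12.7, 11.9 and 14.1 CPM in the monocytes of WT mice 2 to 4 and 12.1, 8.22, 8.01 and 7.30 CPM in those of the CaMKK2 KO mice. All these values lay below those of the Chil3-positive cells given above (log2 fold change 2.14 ± 0.26 (SE), edgeR adjusted p = 1.07e-06, higher in 7 of 7 mice). Apoe was higher in 7 of 7 mice (log2 fold change 1.41 ± 0.14 (SE), edgeR adjusted p = 6.76e-08), as was Trem2, a lipid-sensing receptor of phagocytes (log2 fold change 1.19 ± 0.13 (SE), edgeR adjusted p = 1.69e-07). Mrc1 rose in 6 of 7 mice (log2 fold change 2.33 ± 0.40 (SE), edgeR adjusted p = 0.00015).

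Lysosomal genes were higher in 10 of 11 cases and lower in none (median log2 fold change 0.58). Lgmn, the protease legumain, rose in 7 of 7 mice (log2 fold change 1.05 ± 0.08 (SE), edgeR adjusted p = 1.33e-09), and Ctsd, cathepsin D, rose in 7 of 7 (log2 fold change 0.89 ± 0.13 (SE), edgeR adjusted p = 2.97e-05). Lipid-handling genes were higher in 5 and lower in 1 of 14 cases (median 0.71). Genes of class II presentation were higher in 6 and lower in 1 of 10 cases (median 0.36), but 4 were higher and 2 lower with TMM scaling, and none higher and 2 lower by DESeq2. No direction is therefore given for that list.

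The largest rises in every mouse were in Itga9, an integrin alpha chain (log2 fold change 3.00 ± 0.33 (SE), edgeR adjusted p = 3.06e-07), Tlr12, a toll-like receptor (2.47), Fblim1, which links filamin to adhesions (2.39), the myeloid receptor Cd300e (2.34), Jade2 (2.32), Rapsn (2.25), the lectin Cd22 (2.23), Cd81, the secreted Olfml3 (2.09) and Utp25 (1.96). Jade2 and Rapsn did not pass with a Chil3 minimum of 10 UMIs (edgeR adjusted p = 0.0596 and 0.0624), nor Jade2 in WT mice alone (0.0721). The log2 fold change was 2.98 for Rapsn without CaMKK2 KO mouse 3 and 3.00 for Cd22 without CaMKK2 KO mouse 4. Itga9 stood at 11.996, 29.1, 15.8 and 34.3 CPM in WT and 28.4, 38.9, 25.6 and 55.8 in CaMKK2 KO Chil3-positive cells. It was at 0, 4.21 and 5.29 CPM in the monocytes of WT mice 2 to 4 and 1.91, 2.94, 9.34 and 5.25 CPM in those of CaMKK2 KO mice. Chil3-negative cells had still more, with means of 66.8 and 54.6 CPM.

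Monocyte genes were lower in 10 of 14 cases and higher in none (median log2 fold change -1.04). Vcan, the proteoglycan versican, measured 31.99, 12.5, 29.6 and 17.9 CPM in WT and 10.03, 17.7, 3.94 and 16.7 in CaMKK2 KO Chil3-positive cells. In the monocytes it was 286, 197 and 152 CPM in WT mice 2 to 4 and 99.7, 76.9, 135 and 49.9 CPM in CaMKK2 KO mice. The classes did not overlap within a genotype (log2 fold change -3.08 ± 0.27 (SE), edgeR adjusted p = 8.86e-09, lower in 7 of 7 mice). S100a4 (-2.14), Hp (-1.31) and Plac8 (-0.95) were lower as well. Ccr2 did not pass the test (log2 fold change -0.26 ± 0.11 (SE), edgeR adjusted p = 0.112), but did with TMM scaling (-0.33, edgeR adjusted p = 0.0434).

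The other large falls in every mouse were the coagulation factor F5 (-3.80), dermokine Dmkn (-3.34), the peptidase inhibitor Pi16 (-2.86), the phospholipase Plcb1 (-2.84), the antiprotease Slpi (-2.81), Cd177, a surface protein of neutrophils (-2.80), Arap2 (-2.67), AI839979 (-2.63) and Lcn2, an iron-sequestering lipocalin (-2.55, not passing in CaMKK2 KO mice alone). Without WT mouse 2 the log2 fold changes of Slpi and Lcn2 were -2.20 and -1.85. Interferon genes were lower in 12 of 16 cases, with Ly6a the one that was higher (median -0.43). With TMM scaling and by DESeq2, 12 interferon genes were called and none was higher. Immediate early genes were lower in 6 of 9 (median -0.53). Matrix genes were higher in 4 and lower in 8 of 18 (median -0.31). Inflammatory mediators (6 higher and 4 lower of 20, median 0.03), chemotaxis and adhesion receptors (1 and 4 of 12, -0.29) and alternative activation (1 and 3 of 9, -0.32) were divided. With TMM scaling 8 of the 12 chemotaxis and adhesion receptors were called, 1 of them higher, and by DESeq2 6 were called, 1 of them higher.

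**Figure D4:**
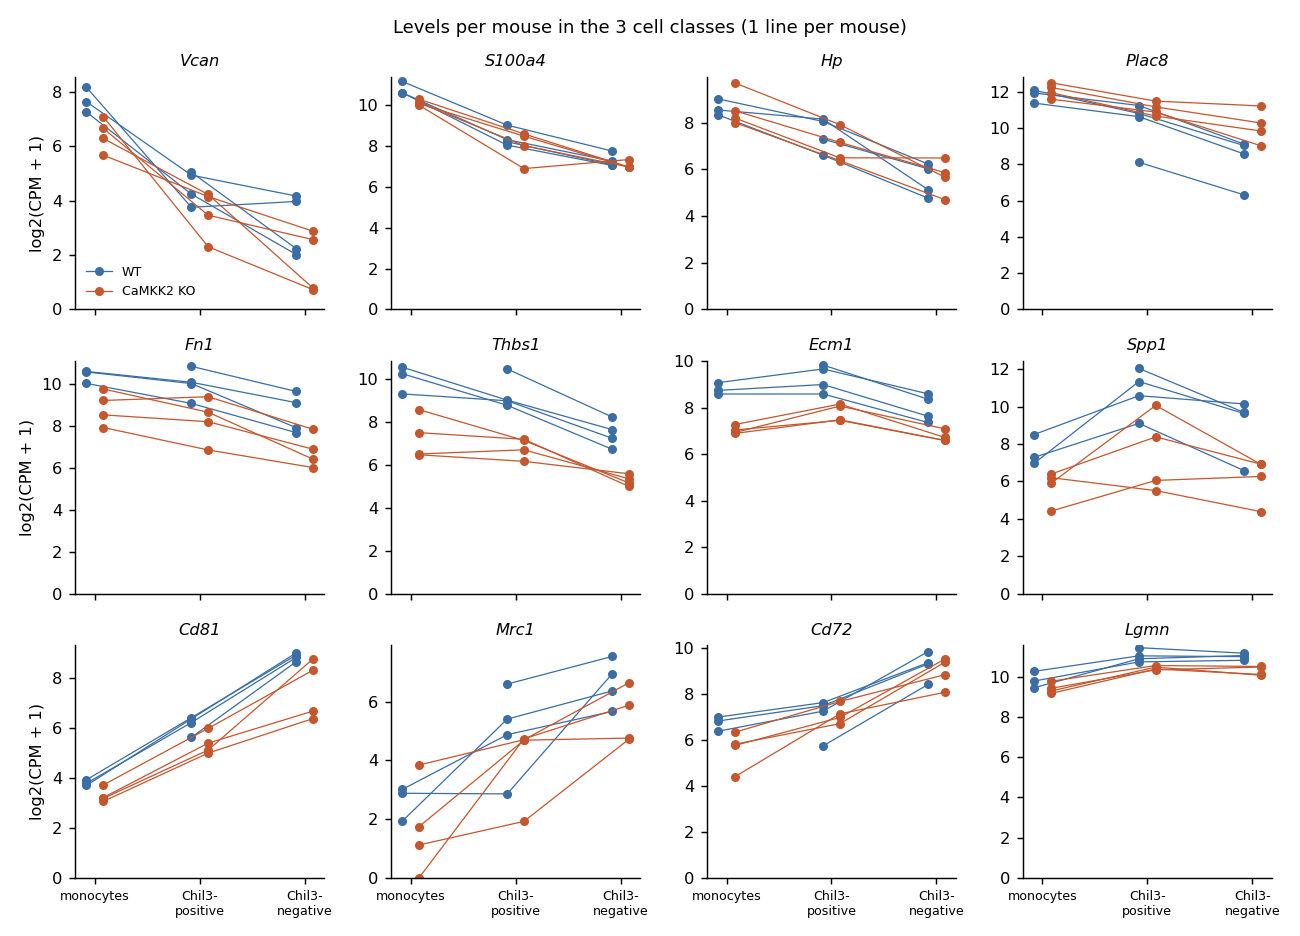
Level per mouse (y axes, log2(CPM + 1)) of 12 genes in monocytes, Chil3-positive and Chil3-negative C1q-gated cells (x axes), with a point and line for each mouse, colored by genotype. Vcan, S100a4 and Plac8 descend from monocytes through the Chil3-positive to the Chil3-negative cells in nearly every mouse, Cd81 and Cd72 ascend, and Ecm1 and Spp1 peak in the Chil3-positive cells of most mice.

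The level of most monocyte and mature macrophage genes in the Chil3-positive cells lay between the other 2 classes. The classes were cut on C1q, Ly6c2 and Chil3, so the gates by themselves order genes that track these, and the counts are a description. By means over mice this held for 13 of 14 monocyte genes in WT and 12 of 14 in CaMKK2 KO, and for 12 and 11 of 14 mature macrophage genes. The same count over all 9196 genes was 52.2% in WT and 46.6% in CaMKK2 KO. The shares of barcodes with 2 hashtags stand above, and their part in this order was not tested. Trem2 and Gpnmb were at or above both classes in each genotype. So were Ecm1, the membrane metalloprotease Mmp14, the syndecan Sdc3 and the integrin Itgb5 among the 18 matrix genes, of which 12 in WT and 10 in CaMKK2 KO lay between. In WT and CaMKK2 KO, 4 and 6 of the 18 matrix genes were at or above both classes. For mature macrophage genes the counts were 2 and 3 of 14. Over all 9196 genes they were 2450 and 2537, so such a position was common.

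Fn1 and Thbs1 were lower in the Chil3-positive cells than in monocytes. Fn1 was 1544, 1515 and 1039 CPM in the monocytes of WT mice 2 to 4 and 591, 367, 864 and 241 CPM in those of CaMKK2 KO mice (log2 fold change -0.63 ± 0.15 (SE), edgeR adjusted p = 0.00432, lower in 6 of 7 mice). Thbs1 was 1503, 1219 and 634 CPM and 180.3, 87.8, 380.4 and 90.2 CPM (log2 fold change -0.79 ± 0.21 (SE), edgeR adjusted p = 0.00873, lower in 6 of 7 mice). The Thbs1 call was lost without WT mouse 2 (-0.63, edgeR adjusted p = 0.0553) or WT mouse 3 (-0.62, edgeR adjusted p = 0.0516), and neither gene passed in CaMKK2 KO mice alone. The Fn1 call was also lost with a Chil3 minimum of 10 UMIs (-0.50, edgeR adjusted p = 0.0512). Ecm1 and Spp1 went the other way, with Ecm1 higher than in monocytes (log2 fold change 0.56 ± 0.12 (SE), edgeR adjusted p = 0.00132) and Spp1 higher in 6 of 7 mice (log2 fold change 2.44 ± 0.39 (SE), edgeR adjusted p = 6.99e-05). In WT the Spp1 level was 4231, 2599.9, 550.4 and 1538 CPM in the Chil3-positive cells, and 124, 155 and 364 CPM in the monocytes of WT mice 2 to 4. Ecm1 did not pass in WT mice alone.

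Between the genotypes, the Chil3-positive cells of CaMKK2 KO mice had less Apoe, Thbs1 and Ecm1 RNA and more RNA of 5 of 10 class II genes. Chemokine and interferon-inducible genes were called in both directions, with Cxcl9, Ccl5 and Ifi44 higher and Ccl3, Ccl4 and Ifi213 lower. Of 4691 genes tested in these cells, 74 differed (1.58%), 32 higher (0.682%) and 42 lower (0.895%) in CaMKK2 KO (edgeR quasi-likelihood test, Benjamini-Hochberg adjusted p under 0.05). DESeq2 gave 56 higher and 45 lower. In 369 genes (7.87%) the 4 WT and the 4 CaMKK2 KO mice did not overlap. Leaving out WT mouse 1 gave 109 calls, and leaving out WT mouse 4 or CaMKK2 KO mouse 2 gave 46 each. CaMKK2 KO mouse 4 left out gave 48.

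Camkk2 itself, the deleted gene, was read first. Its level was 39.99, 47.9, 45.4 and 44.8 CPM in WT and 11.7, 12.4, 9.86 and 16.7 in CaMKK2 KO. The genotypes were apart, with some signal left in CaMKK2 KO (log2 fold change -1.84 ± 0.26 (SE), edgeR adjusted p = 0.00128), and 3′ reads need not lie in the deleted part of the gene.

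Apoe measured 36612, 25566, 19836 and 26498 CPM in WT and 1225, 853, 3771 and 329 in CaMKK2 KO, with every WT mouse above every CaMKK2 KO mouse (log2 fold change -4.13 ± 0.58 (SE), edgeR adjusted p = 0.00128). With CaMKK2 KO mouse 3, which had the most Apoe of its group, left out, the log2 fold change was -5.07. The same difference stood in the neighboring classes, at means of 30723 and 2033 CPM in Chil3-negative cells and 9828 and 512 CPM in monocytes. In T cells, which should lack Apoe, the means were 316 and 28.9 CPM. Mature macrophage genes were lower in 2 of 14 cases (median log2 fold change -0.56, against -0.05 over all genes), Apoe and the tetraspanin Cd63 (log2 fold change -1.25 ± 0.28 (SE), edgeR adjusted p = 0.0374). The Cd63 call was lost without WT mouse 3 or 4 or CaMKK2 KO mouse 1, 2 or 4 (edgeR adjusted p 0.0645 to 0.150). It was also lost with 500 or more UMIs required, a Chil3 minimum of 10, or the highest Scrublet scores or outlying cells left out (edgeR adjusted p 0.0669 to 0.150). By limma on mean CPM it did not pass either (limma adjusted p = 0.0844).

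Matrix genes were lower in 3 of 13 cases and higher in none (median log2 fold change -0.50). Thbs1, whose values per mouse are given above, was higher in every WT mouse than in any CaMKK2 KO mouse (log2 fold change -2.62 ± 0.37 (SE), edgeR adjusted p = 0.00128; -2.08 without WT mouse 1). Its WT values without mouse 1 lay between 438 and 518 CPM, still above the highest CaMKK2 KO value of 145 CPM. Ecm1 measured 919.7, 818, 387 and 513 CPM in WT and 175, 269, 286 and 178 in CaMKK2 KO (log2 fold change -1.52 ± 0.27 (SE), edgeR adjusted p = 0.00875). Spint1, an inhibitor of serine proteases at the cell surface, had 95.97, 223, 166 and 166 CPM in WT and no UMI in any CaMKK2 KO mouse. That made it at least 116-fold lower, taking 3 UMIs over the CaMKK2 KO group as the floor. The gene was also at 0 in the Chil3-negative cells of CaMKK2 KO mice, against 136 CPM in WT.

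Fn1 did not pass between the genotypes (log2 fold change -1.58 ± 0.43 (SE), edgeR adjusted p = 0.0941). It passed with all mice by DESeq2 (-1.57, adjusted p = 0.0199), and in edgeR without CaMKK2 KO mouse 1, which had the highest Fn1 of its group (-2.03, adjusted p = 0.0321). Without WT mouse 1 it did not (-1.24, edgeR adjusted p = 0.130). Among the alternatives run, Spp1 passed only without CaMKK2 KO mouse 1 (-3.89, edgeR adjusted p = 0.0231, against -2.53 and 0.153 with all mice). Of 12 monocyte genes none was called (median -0.07), with 0.51 for Plac8 (0.17 without WT mouse 1) and 0.29 for Ccr2 on the log2 scale. No lysosomal (0 of 11, median -0.14), alternative activation (0 of 7, 0.04), chemotaxis and adhesion (0 of 11, 0.32) or cell-cycle gene (0 of 1) was called either, and Apoe was the 1 call among 10 lipid-handling genes (median -0.03).

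Class II genes were higher in CaMKK2 KO in 5 of 10 cases (median log2 fold change 1.80, with 9 of 10 above 0). H2-Ab1, a chain of the class II molecule I-A, measured 624, 4351, 4445 and 4629 CPM in WT and 12682, 15035, 14225 and 12927 in CaMKK2 KO. The 4 CaMKK2 KO mice were alike, WT mice 2 to 4 were alike at a lower level, and WT mouse 1 was far below them (log2 fold change 1.96 ± 0.43 (SE), edgeR adjusted p = 0.0368; 1.62 without WT mouse 1). Its partner H2-Aa showed the same arrangement, with 436, 3953, 3932 and 4469 CPM in WT and 10766, 11423, 12585 and 10730 in CaMKK2 KO, but did not pass with all mice (log2 fold change 1.83 ± 0.47 (SE), edgeR adjusted p = 0.0743). Without WT mouse 1 the difference was smaller and passed (1.47, edgeR adjusted p = 1.69e-05), and with all mice it passed where genes with 10 or more UMIs were tested (1.83, edgeR adjusted p = 0.0322). Cd74, the invariant chain, did not pass with all mice (log2 fold change 1.50 ± 0.40 (SE), edgeR adjusted p = 0.0842). It passed without WT mouse 1 (1.17, edgeR adjusted p = 0.000114), and with all mice by DESeq2 (1.54, adjusted p = 0.00781) or with genes of 10 or more UMIs (1.50, edgeR adjusted p = 0.0418).

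H2-Eb1, a chain of I-E, was higher (log2 fold change 2.10 ± 0.44 (SE), edgeR adjusted p = 0.0289; 1.75 without WT mouse 1). The call of H2-Ab1 was lost when any mouse but WT mouse 1 was left out (edgeR adjusted p 0.0521 to 0.111), and that of H2-Eb1 without WT mouse 2, 3 or 4 or CaMKK2 KO mouse 2, 3 or 4 (0.0638 to 0.0783). Both calls were also lost with 500 or more UMIs required or a Chil3 minimum of 10 (edgeR adjusted p 0.0749 to 0.0866). By limma on mean CPM neither passed (limma adjusted p = 0.0749 for H2-Ab1 and 0.0641 for H2-Eb1). H2-Ab1 did not pass with the highest Scrublet scores left out either (edgeR adjusted p = 0.0539). H2-DMa and H2-DMb1, chains of the peptide-loading molecule, were higher too (log2 fold change 1.77 ± 0.30 (SE), edgeR adjusted p = 0.00664 for H2-DMb1, 1.50 without WT mouse 1). H2-DMa (1.18, edgeR adjusted p = 0.0131; 0.99 without WT mouse 1) lost its call without WT mouse 4 (0.0540). Ciita, the transactivator of class II genes, measured 3.999, 74.9, 59.2 and 67.1 CPM in WT and 244, 278, 256 and 307 in CaMKK2 KO. The genotypes were far apart (log2 fold change 2.27 ± 0.32 (SE), edgeR adjusted p = 0.0013; 2.01 without WT mouse 1), although limma on mean CPM did not call the gene.

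**Figure D5:**
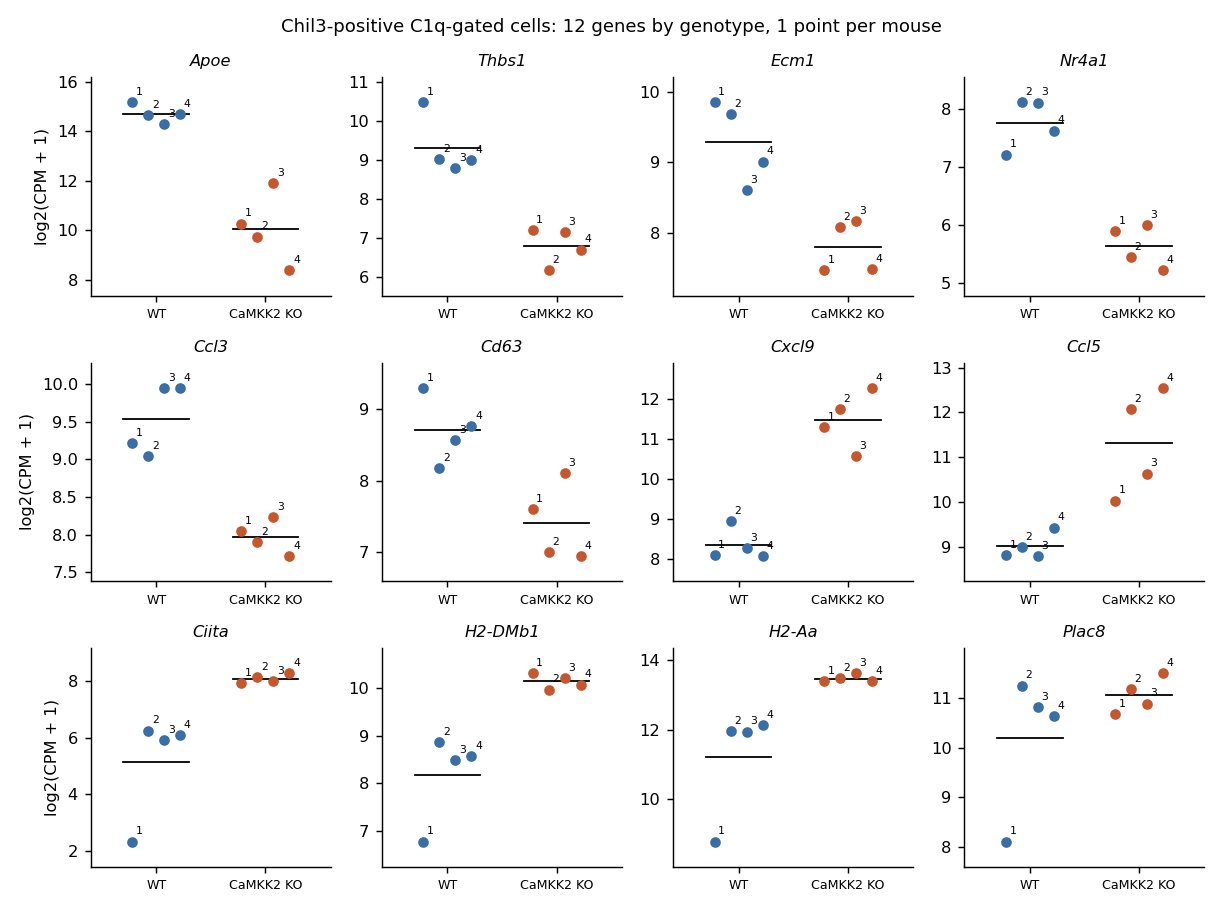
Level per mouse (y axes, log2(CPM + 1), not starting at 0) of 12 genes in the Chil3-positive cells of 4 WT and 4 CaMKK2 KO mice (x axes), with numbered points for mice and lines at the group means. Apoe, Thbs1, Ecm1, Nr4a1 and Ccl3 lie higher in WT, Cxcl9, Ccl5, Ciita, H2-DMb1 and H2-Aa lie higher in CaMKK2 KO, and WT mouse 1 lies far below the other WT mice for Ciita, H2-DMb1, H2-Aa and Plac8.

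Chemokines moved in both directions. Cxcl9, a T cell attractant induced by interferon gamma, measured 276, 495, 309.7 and 270.1 CPM in WT and 2517, 3445, 1522 and 4984 in CaMKK2 KO. The lowest CaMKK2 KO mouse was above the highest WT mouse (log2 fold change 3.20 ± 0.33 (SE), edgeR adjusted p = 0.000104). Ccl5, which also attracts T cells, gave 448, 508, 442 and 688 CPM in WT and 1043, 4295, 1585 and 5979.7 in CaMKK2 KO (log2 fold change 2.62 ± 0.44 (SE), edgeR adjusted p = 0.00634). Ccl3, which attracts monocytes among others, was lower in CaMKK2 KO, at 592, 527, 986 and 988 CPM in WT and 262, 237, 299.6 and 209 in CaMKK2 KO (log2 fold change -1.62 ± 0.23 (SE), edgeR adjusted p = 0.00128). Ccl4 followed Ccl3 (log2 fold change -1.84 ± 0.35 (SE), edgeR adjusted p = 0.0162), but not without WT mouse 4 or CaMKK2 KO mouse 2 or 3 (edgeR adjusted p 0.0534 to 0.0793). By limma on mean CPM it did not pass either (limma adjusted p = 0.0784). Ccl5, Ccl3 and Ccl4 made 1 higher and 2 lower of 19 inflammatory mediators (median log2 fold change -0.24).

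Interferon-response genes were higher in 2 of 16 cases, Cxcl9 and the GTPase Gbp2 (median log2 fold change 0.78). WT mouse 1 stood apart here as well. The list summed to 4039, 11172, 13384 and 10811 CPM in WT mice 1 to 4 and 13681, 19630, 13541 and 26882 CPM in CaMKK2 KO. Without WT mouse 1 the log2 fold changes of Cxcl9 and Gbp2 were 3.12 and 1.53. Gbp2 (log2 fold change 1.76 ± 0.36 (SE), edgeR adjusted p = 0.0232) lost its call without WT mouse 2 or 4 or CaMKK2 KO mouse 2 or 4 (edgeR adjusted p 0.0751 to 0.0857). It was also lost with 500 or more UMIs required (edgeR adjusted p = 0.0713) and by limma on mean CPM (limma adjusted p = 0.0641). Interferon-inducible genes outside the list had the largest rises. Ifi202b, of the DNA-sensing p200 family, had no UMI in the WT cells and 363, 490.4, 347 and 599 CPM in CaMKK2 KO, at least 277-fold higher against a floor of 3 UMIs over the WT group. Ifi44l had no UMI in WT and 264, 230.1, 162 and 329 CPM in CaMKK2 KO, at least 153-fold higher. Its neighbor Ifi44 rose (log2 fold change 4.21 ± 0.41 (SE), edgeR adjusted p = 6.18e-05), and Ifi213, another p200 gene, fell (log2 fold change -4.39 ± 0.40 (SE), edgeR adjusted p = 3.31e-05). Genes of the p200 family are close copies, so the counts of single members are uncertain.

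Immediate early and heat-shock genes were lower in 3 of 9 cases, and none of the 9 had a log2 fold change above 0 (median -1.10). Nr4a1, an orphan nuclear receptor induced within minutes of stimulation, measured 148, 277, 276 and 197 CPM in WT and 58.5, 42.5, 63.1 and 36.2 in CaMKK2 KO. The genotypes did not overlap (log2 fold change -2.16 ± 0.24 (SE), edgeR adjusted p = 0.000151). Hspa1a, a heat-shock chaperone, was lower as well (log2 fold change -1.67 ± 0.31 (SE), edgeR adjusted p = 0.0121). Its near-identical copy Hspa1b (-3.67, edgeR adjusted p = 0.0374) lost its call without WT mouse 2 or CaMKK2 KO mouse 2, 3 or 4 (0.0700 to 0.150), and its log2 fold change was -5.16 without CaMKK2 KO mouse 1. By limma on mean CPM Hspa1b did not pass either (limma adjusted p = 0.101). The median share of mitochondrial UMIs, a sign of cell quality, was 2.17% in the 153 WT and 1.52% in the 166 CaMKK2 KO cells. The mitochondrial genes mt-Nd3 (log2 fold change -1.27 ± 0.28 (SE), edgeR adjusted p = 0.0368) and mt-Nd4l (log2 fold change -1.21 ± 0.27 (SE), edgeR adjusted p = 0.0374), chosen after their values were seen, were also lower in CaMKK2 KO. Both calls were lost without WT mouse 2, 3 or 4 or CaMKK2 KO mouse 2, that of mt-Nd3 also without CaMKK2 KO mouse 3 and that of mt-Nd4l also without CaMKK2 KO mouse 4 (edgeR adjusted p 0.0532 to 0.152). Neither mitochondrial gene passed with a Chil3 minimum of 10 or the highest Scrublet scores left out (edgeR adjusted p 0.0539 to 0.0701), or by limma on mean CPM (limma adjusted p 0.0798 and 0.0857). Their part in the results above was not tested. Each genotype was 1 pool, so a difference in handling between the pools cannot be told apart from genotype.

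Further genes with the largest changes were each apart between the genotypes. Hebp1, a heme-binding protein, measured 43.99, 27.1, 21.7 and 41.8 CPM in WT and 231, 225, 233 and 243 in CaMKK2 KO (log2 fold change 2.81 ± 0.20 (SE), edgeR adjusted p = 3.95e-06). Gatm, an enzyme of creatine synthesis, was higher in CaMKK2 KO (log2 fold change 2.52 ± 0.26 (SE), edgeR adjusted p = 0.000104), and so was Ltb4r1, a receptor for leukotriene B4 (log2 fold change 2.58 ± 0.41 (SE), edgeR adjusted p = 0.00419). Eps8, an actin regulator, was at 184, 87.4, 92.7 and 98.5 CPM in WT and 10.03, 0, 3.94 and 0 in CaMKK2 KO (log2 fold change -4.73 ± 0.51 (SE), edgeR adjusted p = 0.000134). Its CaMKK2 KO level rests on 8 UMIs in 2 mice, and leaving out CaMKK2 KO mouse 1 moved the log2 fold change to -6.06. Also lower in CaMKK2 KO were Olfml3 (log2 fold change -2.81 ± 0.37 (SE), edgeR adjusted p = 0.000826), the secreted kinase Fam20c (-3.27, not called by limma on mean CPM) and the translation initiation subunit Eif3j1 (log2 fold change -2.37 ± 0.24 (SE), edgeR adjusted p = 8.86e-05). Eif3j1 was lower in T cells of CaMKK2 KO mice too, at means of 73.8 CPM in WT and 18.001 in CaMKK2 KO.

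None of 9196 genes had a genotype difference that differed between Chil3-positive and Chil3-negative cells (interaction of class and genotype, edgeR adjusted p under 0.05), where 454 had an unadjusted p under 0.05. DESeq2 called none either, with 283 at an unadjusted p under 0.05. Hebp1 (1.18, edgeR adjusted p = 0.232) and Plac8 (-1.03, edgeR adjusted p = 0.232) were among the closest. In simulated data of the same size, 25% of 2-fold and 76% of 4-fold differences of this kind were recovered. A smaller difference between the classes was thus mostly out of reach, and the genotype differences above were not shown to be particular to the Chil3-positive cells. The differences of Apoe (-0.50), Thbs1 (-0.28) and H2-Ab1 (0.59) between the classes, on the log2 scale, did not pass.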

How the data were processed

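The deposited files held raw counts of UMIs per gene and barcode, which the authors made with bcl2fastq 2.20, Cell Ranger 4.0.0 and STAR 2.7.5c on mm10, per the labels, with the hashtag counts of 4 antibodies in the same matrices. Hashtags were assigned to mice with HTODemux (Seurat 5.3.0, quantile 0.99). UMIs were summed per mouse and class where a mouse had 10 or more cells, and genes with 100 or more UMIs were tested with edgeR 4.0.16 quasi-likelihood fits (R 4.3.3) with the class total as library size, Benjamini-Hochberg adjusted over all genes tested, genes of the gates included, which were then left out of the counts. Genotypes were compared without a block. Classes of the same animals were compared in 1 fit with the mouse as a block. Shares were compared with exact permutation tests over all divisions of the mice (Python 3.11.15). Alternatives used DESeq2 1.42.0, TMM factors, limma 3.58.1 on log2(CPM + 1), Scrublet scores (scanpy 1.11.5), other minimums, thinned counts and each mouse left out.

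The members, the marker and gene lists and the tests were chosen with earlier results of these data known. Genes named for size were the 10 highest and 10 lowest log2 fold changes among called genes with 1 direction in every mouse, or with no overlap of genotypes, Gm and Rik gene models left out. List genes were given by counts. Of 31253 gene identifiers, 31184 were placed by GENCODE M21. On simulated counts, the genotype test recovered 71% of 2-fold and 96% of 4-fold changes, the test against Chil3-negative cells 76% and 95%, and the test against monocytes 71% and 90%. The 4 mice of a genotype were separate animals from 1 pooled library, so p-values measure the spread between animals within a pool. PCR copies were collapsed by UMI, and limits from a count of 0 cover counting error only. Values of some genes are not reported here.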

Additional observations from a re-analysis of the deposited data

Results flagged for a closer look

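In 8 of 89 groups of 4 mice examined in the Chil3-positive cells, 1 mouse lay far from the other 3, with a gap to its nearest neighbor above Dixon's critical value as a part of the group's range. Chance gives about 1 in 20 independent groups, but these groups are genes of the same mice and are not independent, so the numbers cannot be compared. WT mouse 1 accounted for 7 of them. Its class II genes were the lowest: H2-Aa was 436 CPM against 3932 to 4469 in the other WT mice, H2-Ab1 was 624 against 4351 to 4629, H2-Eb1 was 424 against 3155 to 3517, and Cd74 was 1943 against 10764 to 12026. Thbs1 (1420 CPM against 438 to 518), Eps8 (184 against 87.4 to 98.5) and Ltb4r1 (36.0 against 9.86 to 10.4) were highest in that mouse. In CaMKK2 KO mouse 1, Hspa1b was 11.7 CPM against 0 to 1.97 in the other CaMKK2 KO mice. WT mouse 1 also gave the fewest Chil3-positive cells (19) and 7 classical monocytes.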

How the results depend on the processing

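The share of Chil3-positive cells among C1q-gated macrophages differed by -0.209 percentage points between the genotypes, and its sign turned with small changes of the rule: 0.229 with a Chil3 minimum of 2, 0.302 and 1.55 with a C1q minimum of 15 and 60, 0.192 with outlying cells left out, and -1.45 to 1.04 with a mouse left out. Among all singlets the difference of 0.0424 became -0.153 and -0.322 with a Chil3 minimum of 5 and 10, and ranged from -0.184 to 0.307 with a mouse left out. No alternative of either share passed the exact test.

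The 74 genes called between genotypes became 24 with 500 or more UMIs required, 114 with 10 or more, 47 with a Chil3 minimum of 10, 48 by limma on mean CPM, and 46 to 109 with a mouse left out. Higher calls were 43.2% of the 74 and 55.4% of the 101 made by DESeq2. The mouse block matters because classes come from the same animals: without it 273 genes differed from Chil3-negative cells in place of 1092, and 1152 from monocytes in place of 1722. Against Chil3-negative cells, thinning gave 686, WT mice alone 569, CaMKK2 KO mice alone 387, and a mouse left out 786 to 1071. Higher calls were 48.6% of the 1092, 58.0% with TMM and 59.4% by DESeq2. Against monocytes, a Chil3 minimum of 10 gave 834, thinning 1100, WT mice alone 852, CaMKK2 KO mice alone 722, and a mouse left out 1298 to 1728. The interaction gave 2 genes with 10 or more UMIs required and 0 to 3 with a mouse left out (1 without WT mouse 3, 3 without CaMKK2 KO mouse 3). The causes were not tested, except that fewer mice or genes entered some of these fits. No paired analysis was possible between genotypes because hashtag numbers mark different animals. Of 2228 alternatives of 129 single-gene results, 2062 kept direction and call, 157 lost the call, 9 gained it and none turned.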

Other observations

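The genes called between genotypes in the Chil3-positive cells lay near each other more often than the tested genes as a whole. Another called gene lay within 2 Mb of 34 of the 74 called genes (45.9%), against 750 of the 4691 genes tested (15.99%), a description with no test. On chromosome 1, from 173468485 to 174031810 (mm10), lie the p200 genes Ifi206 (log2 fold change -2.06), Ifi214 (1.76), Ifi213 (-4.39), Ifi202b (at least 277-fold higher) and Ifi205 (-2.08). On chromosome 2, Thbs1 (starting at 118111876) and Spint1 (119237362) were both lower in CaMKK2 KO, and Eif3j1 (122028546, lower) lies near Gatm (122594467, higher). On chromosome 3 the pair Ifi44 and Ifi44l, and on chromosome 17 class II and Hspa1 genes, stood together as well. Loss of CaMKK2 and other alleles that the CaMKK2 KO stock may carry at such stretches cannot be told apart here.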
